A study of Mus musculus with 36 samples.

Results

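Single-exon circles are circular RNAs (circRNAs) whose ends are the start and the end of 1 annotated exon, so that the 3′ end of the exon is joined to its own 5′ end. They were taken by comparing the ends of every circRNA with the exons of the mouse GENCODE M21 annotation on the same strand (genome build GRCm38) and by asking for detection in at least 2 replicates of a time point in the hippocampus or the frontal cortex. Of 6656 circRNAs that were found this often, 307 were single-exon circles, 5252 were multi-exon circles running from the start of 1 exon to the end of another exon of the same transcript, and 1097 belonged to neither class. The counts came from total RNA of 36 tissue samples of mice labelled C57BL/6, which the methods of the study give as C57BL6/N males of 9 to 10 weeks. Both tissues were taken at Zeitgeber times (ZT, hours after lights on) 1, 5 and 9 in the light and 13, 17 and 21 in the dark, with 3 samples for each tissue and time. The labels do not say whether a hippocampus and a cortex sample came from the same animal, and p-values measure the spread between these samples.

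A circRNA forms when the splicing machinery joins the 3′ end of an exon back to an upstream 5′ end, instead of joining it to the next exon. A multi-exon circle loses the introns between its exons by ordinary splicing, whereas a single-exon circle needs only the back-splice itself and the release of the flanking introns. Closed circles have no free ends and are slowly degraded, and neurons are rich in them. Only reads that cross the back-splice junction tell a circle from the linear RNA of the same gene, and the linear RNA was not used here, so that more transcription of a host gene and more circularization cannot be told apart.

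The depth differed between libraries. The circular reads, which are the reads over all back-splice junctions listed, ranged from 6754 to 73252 per sample in the hippocampus and from 8107 to 34803 in the cortex. The libraries hippocampus ZT1 replicate 3 (the deepest), hippocampus ZT13 replicate 1 and cortex ZT9 replicate 3 (the shallowest of each tissue) stood apart, and results that rest on them are given with and without them. As a check of the tissue labels, circles of Prox1 and Zbtb20, transcription factors of hippocampal neurons, summed to 740 to 2815 RPM (back-spliced reads per 1000000 listed circular reads of the sample) in the hippocampus and to 0 to 710 in the cortex. Astrocyte circles had a median of 0 in both tissues, and none of 5 oligodendrocyte markers had a circle.

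The back-splice junction is the sequence that identifies a circle. The junctions of the 8 single-exon circles with the most reads are printed 5′ to 3′ from the GENCODE M21 transcripts, the last 15 bases of the exon in lower case and the first 15 bases of the same exon in capitals:
Cdr1as: gtctgccgtatccagGGTTTCCAGTGGTGC
Slc8a1: gaacgatgaaatagtGTTGGAGCAGTTGGA
Fat3 exon 2: tagatgatgagagtgGACGGACATGTGATA
Kat6b: catgagaaagaccagGTCTTGGTTTCCTAA
Tcf20: atcgccagagagatgGAGGGCTGCTGGCCT
Med13l: atcatgaactgcaggGCTGAACTCACAGGA
Hipk3: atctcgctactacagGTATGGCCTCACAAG
Nfix: ttgtccacactccggGATGAGTTCCACCCG

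Cdr1as (chrX:61183248-61186174, plus strand) is exon 6 of 7 of the noncoding transcript C230004F18Rik-206 and is the circle known for its binding of the microRNA miR-7. The other 7 are the second exon of their transcript. Slc8a1 (chr17:81647809-81649638, minus strand) encodes a sodium-calcium exchanger. Fat3 (chr9:16374949-16378254, minus strand) encodes an atypical cadherin, Kat6b (chr14:21516626-21517498, plus strand) a histone acetyltransferase and Tcf20 (chr15:82851513-82857284, minus strand) a transcriptional coregulator. Med13l (chr5:118593333-118593570, plus strand) encodes a subunit of the Mediator complex, Hipk3 (chr2:104470749-104471847, minus strand) a protein kinase and Nfix (chr8:84771784-84772315, minus strand) a transcription factor of the nuclear factor I family.

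Med13l is shown in full as the most abundant circle made of a wholly coding exon under 300 bases. Its 238 bases are exon 2 of 31 of Med13l-201, with the 15 bases on each side of the back-splice in capitals:
Med13l: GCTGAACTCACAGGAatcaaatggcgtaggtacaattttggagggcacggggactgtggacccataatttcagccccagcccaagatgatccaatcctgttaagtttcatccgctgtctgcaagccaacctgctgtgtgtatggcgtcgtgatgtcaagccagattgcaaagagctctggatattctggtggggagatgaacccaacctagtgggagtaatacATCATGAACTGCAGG
Such a short exon was the exception among the abundant circles, since 7 of the 8 were longer than 500 bases. The next wholly coding exons under 300 bases by reads, exon 4 of 10 of Thrb-201 and exon 2 of 14 of Ppp3ca-201, are shown because both differed between the tissues:
Thrb: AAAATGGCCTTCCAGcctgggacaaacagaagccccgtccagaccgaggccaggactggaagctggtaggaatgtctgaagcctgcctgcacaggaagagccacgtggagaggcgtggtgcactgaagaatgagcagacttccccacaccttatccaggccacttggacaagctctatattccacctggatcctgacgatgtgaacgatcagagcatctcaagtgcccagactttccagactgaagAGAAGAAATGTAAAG
Ppp3ca: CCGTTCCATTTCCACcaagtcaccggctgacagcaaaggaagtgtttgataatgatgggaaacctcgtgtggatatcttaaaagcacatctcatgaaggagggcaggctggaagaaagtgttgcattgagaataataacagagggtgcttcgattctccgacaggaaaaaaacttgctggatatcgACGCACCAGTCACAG

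The mature sequence of miR-7 in RefSeq (build GRCm38.p6), with its seed at bases 2 to 8 in capitals, is shown because the best known single-exon circle carries its sites:
mmu-miR-7a-5p: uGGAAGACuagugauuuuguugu
The complement of the seed, GTCTTCC, was searched on the sense strand of each circle, across the junction as well. Cdr1as held 123 matches. Of the other 306 single-exon circles 28 (9.15%) held a match, none of them more than 2. These are letter matches and were not tested as binding sites.

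The second exon of the transcript was the most frequent circularised exon. Exon 2 formed 137 of the 307 circles (44.6%), exon 3 formed 60, exon 4 formed 35, exon 5 formed 21 and a later exon 54. The first exon, which has no splice acceptor, formed none. Among the internal exons of coding transcripts in the same host genes that formed no single-exon circle, 6.19% of 3864 were exon 2. Of the 307 circles 305 were internal exons, and the 2 others, Zfp109 and 1 circle of the noncoding gene Snhg14, ended at an annotated last exon. Only 5 circles were divided by a splice site in some other annotated transcript, namely Smyd4, Rab3gap2, Hmgxb3, Dlgap4 and exon 5 of Pclo. The host was a protein-coding gene for 298 circles, and the 9 noncoding ones were Cdr1as, Pvt1, Firre, Rian, Gm34419 and 4 exons of Snhg14.

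Many single-exon circles held the start codon of the host. An annotated start codon lay inside 123 circles (40.1%) when all transcripts with that exon were read, and 81 of these were second exons. In the single transcript used for the description the share was 35.8% (110 circles), against 15.8% of multi-exon circles (830 of 5252). The transcript was chosen by different rules, a coding one being preferred for single-exon circles and the shortest in exonic length for multi-exon circles. These shares are therefore not wholly alike, and the effect of the rules was not tested. With all transcripts read, a start codon lay in 42.6% of the 289 circles that are internal exons of coding transcripts and in 3.49% of the other internal exons of the hosts. Of the circles 172 were wholly coding, 114 partly coding and 21 had no coding base. In 107 of 109 circles with a complete start codon the annotated reading frame was still open at the back-splice. Past the junction it met a stop after a median of 14 codons, and at most after 106. In 9 circles no stop was met in any turn around the circle. Singled out after their values were seen, these were Slc8a1, Fat3 exon 2, Tcf20, Dennd2a, Fbxw7, Syt1, Zfp536, Disp1 and Grin2b exon 4, and the first 3 were among the 5 most abundant single-exon circles. Of the wholly coding circles 67 (39.0%) had a length divisible by 3, as had 40.6% of the other internal exons of the hosts. No translation was measured.

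**Figure D1:**
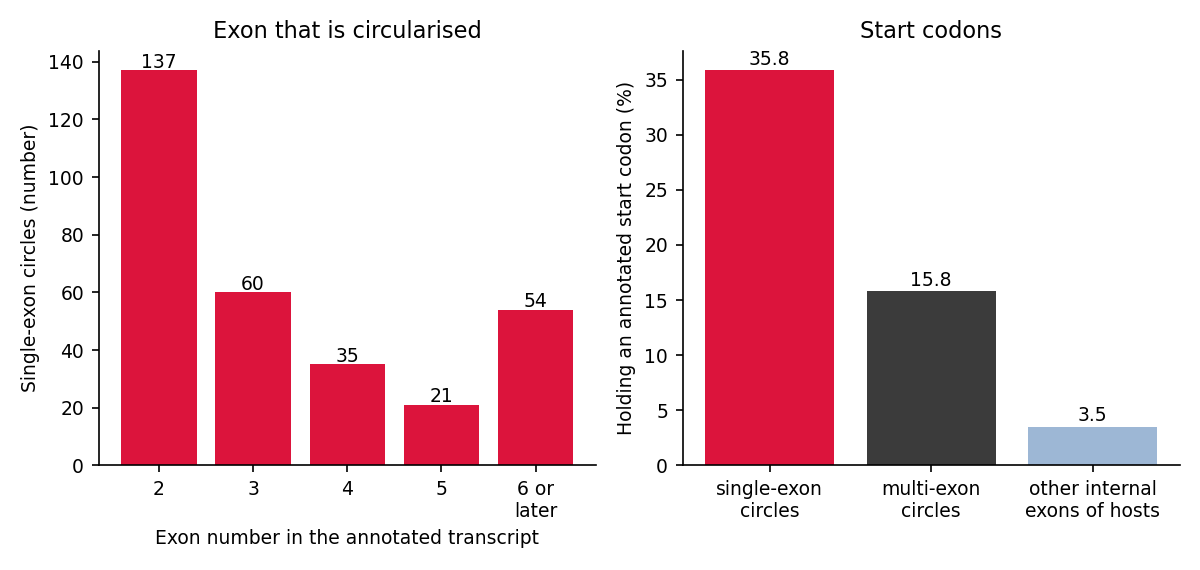
The left bars give the number of single-exon circles by the number of the circularised exon in its transcript, and the right bars the percent of single-exon circles, multi-exon circles and other internal exons of the host genes that hold an annotated start codon. For circles the transcript used for the description was read, chosen by different rules for single-exon and multi-exon circles. For other exons every coding transcript was read. Exon 2 leads with 137 circles, and the share with a start codon is 35.8% for single-exon circles, 15.8% for multi-exon circles and 3.5% for the other exons.

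Single-exon circles were made of long exons. Their median length was 641 nt, with quartiles of 356.5 and 1128.5 nt and a range of 137 to 7433 nt. The other internal exons of the same host genes had a median of 133 nt, and all 307 circles were longer than 123 nt, the median of internal exons over all coding genes. The shortest genomic span of a multi-exon circle was 169 nt. Whether circles shorter than those found could be detected was not tested, so the comparison holds for detected circles only. Of 287 circles in coding hosts that could be ranked, 190 (66.2%) were the longest internal exon of their gene. The long exon was not a feature of the second position alone. Exon 2 circles had a median of 589 nt, circles of later exons 694 nt and the other second exons of the hosts 124 nt. The GC content did not stand out, with a median of 50.3% (quartiles 46.5 and 54.7%) against 50% (44.9 and 55.0%) for the other internal exons.

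In total length the classes overlapped. A multi-exon circle had a median of 4 exons and a median exonic length of 552 nt (quartiles 366 and 881 nt), counted over the shortest annotated transcript that holds both ends. The exons inside it had a mean length of 129 nt at the median, close to the background of internal exons. Circles of 2 exons were shorter, with a median of 307 nt over 989 circles. The single-exon class was the broader one at both ends. Circles under 200 nt made up 11.7% of it and 2.65% of the multi-exon class, and circles of 2000 nt or more made up 9.12% and 4.09%. The median of the single-exon class was 407 nt when the rule of 2 replicates was dropped and 695 nt when 3 replicates were asked for. With the rule dropped, the multi-exon class had the longer median, so the order of the classes depended on the detection rule. Of the 307 circles 12 were shorter than the reads of 150 bases.

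**Figure D2:**
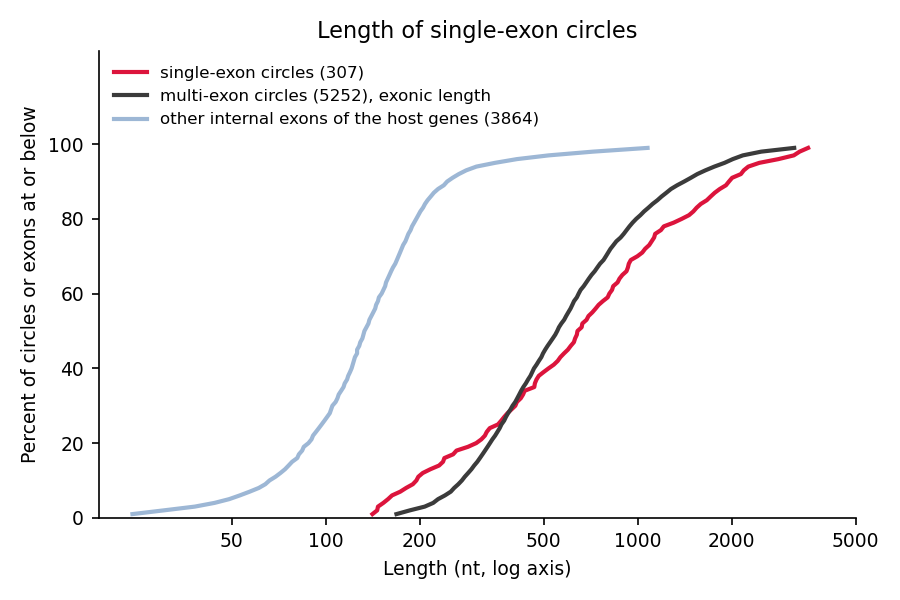
Each curve gives the percent of circles or exons (vertical axis) at or below a length in nucleotides (horizontal log axis) for the 307 single-exon circles, the 5252 multi-exon circles and 3864 other internal exons of the host genes. The curves of single-exon and multi-exon circles cross below their medians of 641 and 552 nt, and both lie far to the right of ordinary internal exons with 133 nt.

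At the short end, the 3 shortest single-exon circles that were found in at least 18 samples were exon 2 of Hivep1 with 143 nt and 2 exons of Snhg14 with 147 nt. Hivep1, a zinc finger transcription factor, gave 149 reads in all. The gene Snhg14 is a noncoding host of small nucleolar RNAs with repeated exons, and its 4 circles of 147 nt were 93.2 to 97.3% identical to each other, so their reads may be shared between the copies and their single values are uncertain. At the long end were Tcf20 with 5772 nt, exon 3 of Ash1l with 4558 nt and exon 13 of Akap6 with 3388 nt. Ash1l is a histone methyltransferase, and Akap6 anchors protein kinase A. Tcf20 was found in all 36 samples with 3114 reads, Akap6 in 34 with 316 reads and Ash1l in 19 with 66 reads.

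The introns on both sides of single-exon circles were long. The upstream intron had a median of 22746 nt and the downstream intron one of 22940 nt over the 305 internal circles. Multi-exon circles had medians of 12737 and 10604 nt, and the other internal exons of the hosts 2735 and 2494.5 nt. Both introns were over 10 kb for 59.3% of single-exon circles, for 36.1% of multi-exon circles and for 11.1% of the other internal exons. First introns are long as a rule. Within second exons the upstream intron had a median of 26888 nt for single-exon circles and 10467 nt for the other second exons of the hosts. For multi-exon circles that begin at exon 2 its median was 20751.5 nt, so that the circle classes lay closer there than over all positions. The values describe the annotation over circles that share host genes, and no test was made. Across the 305 circles the intron lengths were hardly related to the reads, with a Spearman rho of 0.10 for the upstream and 0.11 for the downstream intron. Nfix was an exception among the abundant circles, with an upstream intron of 1038 nt.

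A single-exon circle carried more reads than a multi-exon circle. The median over circles detected in the tissue was 34 against 23 reads in the hippocampus and 32 against 24 in the cortex, summed over 18 samples. The mean number of reads per circle was taken for both classes in each sample and their ratio compared with 1 in an exact two-sided sign-flip test over 18 samples. The same circles enter every sample, so that the p measures the spread between samples and not the spread between circles. Single-exon circles had 3.37-fold more reads per circle in the hippocampus (log2 ratio 1.75 ± 0.10, SD) and 3.94-fold more in the cortex (1.98 ± 0.25), and all 18 samples of each tissue showed the direction (exact p = 7.63e-06, the smallest possible). Without Cdr1as the ratio was 1.99-fold in the hippocampus (log2 0.99 ± 0.11) and 1.90-fold in the cortex (0.92 ± 0.09), again in 18 of 18 samples with the same p. When every sample was thinned to the smallest total of its tissue, 6754 or 8107 reads, the log2 ratios were 1.75 and 1.98. Thinning lowers the reads of both classes alike, so it could not show an effect of depth on this ratio.

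Single-exon circles were also detected more steadily. A hippocampus sample held 26.7 to 92.8% of the single-exon circles of its tissue (median 58.3%) and 18.9 to 83.2% of the multi-exon circles (median 49.1%), and a cortex sample 30.9 to 76.0% (62.2%) and 23.2 to 66.7% (50.5%). The single-exon share was the higher one in 18 of 18 samples of each tissue. All 36 samples held 25 single-exon circles (8.14%) and 193 multi-exon circles (3.67%). Of the single-exon circles 203 (66.1%) passed the rule of 2 replicates in both tissues, 74 in the hippocampus only and 30 in the cortex only, against 56.4% in both tissues for multi-exon circles. The 104 circles that passed in 1 tissue had a median of 19 reads and at most 115, and those that passed in both had 96. At this depth absence from the other tissue was not detectable, and the smallest count above 0 in the files is 2, so that a count of 0 may hide a single read.

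The reads were concentrated on few circles. Over both tissues 14 single-exon circles had over 1000 reads (4.56%, against 1.10% of multi-exon circles), and 156 had fewer than 50. Of the 14, 12 were second exons and 9 held a start codon. Over all members, exon 2 circles had a median of 66 reads (quartiles 26 and 160) and later exons 40 (20 and 119), with wide overlap. Circles of 500 to 999 nt had a median of 75 reads, those under 200 nt 28 and those of 2000 nt or more 44.5, and across the 307 circles length and reads had a Spearman rho of 0.19, against -0.03 across the multi-exon circles. Cdr1as alone held 42.0% of all single-exon reads in the hippocampus and 53.2% in the cortex, and the next 9 circles held 24.2 and 19.4%.

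The most abundant circles were present in every library. In RPM, Cdr1as ranged from 31981 to 75445 in the hippocampus (median 55286) and from 17639 to 110530 in the cortex (87117), far above every other single-exon circle. Slc8a1 had a lowest value of 5034, a median of 6076 and a highest value of 8079 in the hippocampus, and 3649, 4732 and 13198 in the cortex, the last in cortex ZT9 replicate 3. Fat3 exon 2 ranged from 3455 to 7107 (median 3982) in the hippocampus and from 4139 to 8340 (5176) in the cortex. Kat6b was the steadiest of them, with 3456 to 5626 (4172) and 3426 to 5100 (3838). Tcf20 had 2897 to 6959 (4379) in the hippocampus and 2234 to 8264 (3570) in the cortex. Med13l had 1995 to 3850 (3045) and 2022 to 4252 (2980), and Hipk3 1481 to 3711 (2939) and 1480 to 3568 (2813), so that both overlapped almost wholly between the tissues. Nfix had 2852 to 4378 (3666) in the hippocampus and 951 to 2602 (1827) in the cortex, and is the only one of the 8 whose tissues did not overlap.

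In some hosts the single-exon circle was the only detected circle of either class. Circular reads of a gene, and the circle that leads it, refer here and below to its detected single-exon and multi-exon circles only. For 104 circles no other single-exon or multi-exon circle of the gene was found in 2 replicates of a time point. In the hosts of the remaining 203 circles, the single-exon circle had the most reads of the gene in 81, and held a median of 25.9% of the circular reads of the gene. The 14 circles with over 1000 reads all led their host, with 78.6 to 100% of its circular reads. Another circle shared the start or the end of the exon in 139 cases, at the 5′ edge for 92 circles and at the 3′ edge for 66. More than 1 single-exon circle came from 23 of 281 host genes, such as exons 2, 3 and 5 of Ash1l, and those of Clvs1 and of Mlip are overlapping versions of an exon.

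The share of circular reads that fell on single-exon circles asks whether the tissues use this class to the same extent. Of the reads on detected circRNAs, 15.5% ± 0.89 (SD, n = 18) were single-exon in the hippocampus and 17.1% ± 2.29 (n = 18) in the cortex. The samples ranged from 14.2 to 17.5% and from 11.8 to 20.7%, so that the tissues overlapped. The difference of -1.64 percentage points, hippocampus minus cortex, passed a two-sided permutation test with 100000 resamples (p = 0.00806). Without Cdr1as the order was the reverse, with 9.74% ± 0.54 in the hippocampus and 8.95% ± 0.41 in the cortex, a difference of 0.78 points (permutation p = 2e-05, the smallest that was possible). Cdr1as took 6.39% ± 1.05 of the reads in the hippocampus and 8.996% ± 2.497 in the cortex (both n = 18). In these bulk samples fewer cells of a type and less RNA per cell cannot be told apart. Without the 3 libraries that stood apart the differences were -1.94 points with Cdr1as (permutation p = 0.00074) and 0.73 points without it (permutation p = 2e-05).

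**Figure D3:**
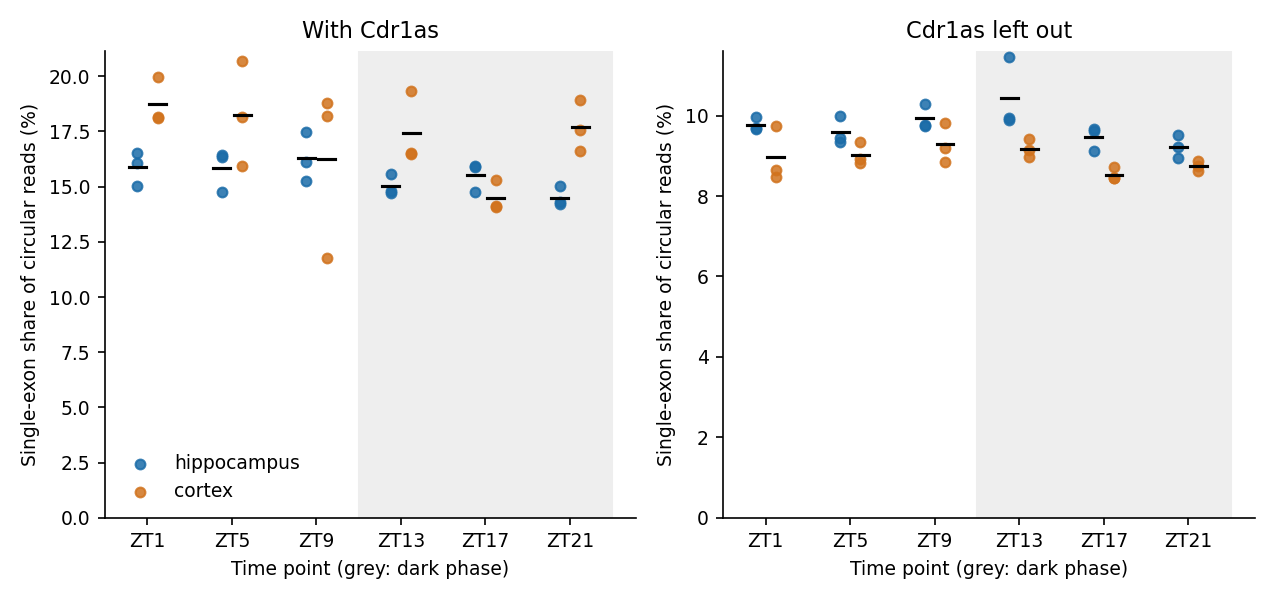
Points are samples, with 3 per tissue and time point, and black bars are their means. The vertical axes give the percent of circular reads on single-exon circles with Cdr1as (left) and with Cdr1as taken out of circles and total (right). With Cdr1as the cortex samples reach 20.7% and cortex ZT9 replicate 3 falls to 11.8%, and without it the hippocampus samples of ZT13, ZT17 and ZT21 all lie above the cortex samples of the same time point, whereas the tissues overlap at ZT1, ZT5 and ZT9.

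Single circles were compared between the tissues with edgeR's quasi-likelihood test over all 36 samples, fitted on every circRNA and adjusted by Benjamini-Hochberg over the 705 that passed the filter on low counts. Of the 307 single-exon circles 59 passed the filter and 248 had too few reads. Of the 59, 16 were higher in the hippocampus and 6 in the cortex at an adjusted p under 0.05. In either direction these were 37.3% of the single-exon circles and 30.5% of all circRNAs tested. Among all circRNAs tested 17% were higher in the hippocampus and 13.5% in the cortex, and among the 566 multi-exon circles 15.7 and 14.3%. The percentages of the 59 single-exon circles were 27.1 and 10.2. Their median log2 difference was 0.13, against 0.04 over all circRNAs, and 38 of 59 were positive. With DESeq2's size factors or with total reads as the scale, 14 were higher in the hippocampus and 7 or 6 in the cortex, and the difference between the classes was not tested.

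**Figure D4:**
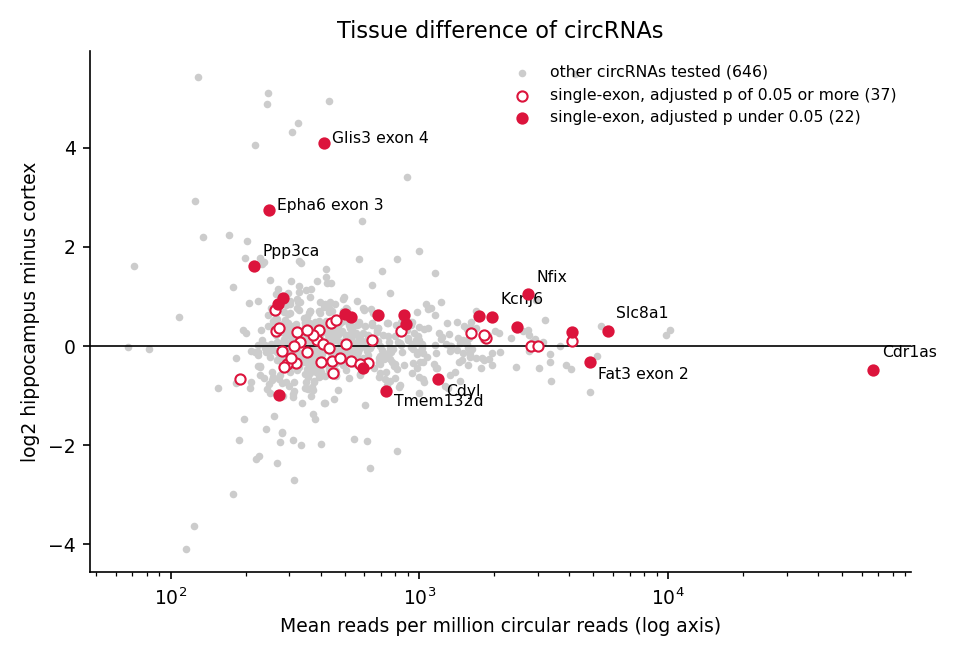
Each point is 1 of 705 circRNAs, by its mean RPM (log axis) and its fitted log2 difference, hippocampus minus cortex. The 59 single-exon circles are red, the 22 with an adjusted p under 0.05 filled, and Glis3 exon 4 and Epha6 exon 3 lie highest among them.

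The clearest difference was exon 4 of Glis3 (chr19:28530873-28531986, minus strand), a zinc finger transcription factor. It had 319 to 1194 RPM (median 798) in the hippocampus and 0 to 248 (median 0) in the cortex, where 10 of 18 samples had a count of 0. No cortex sample reached the lowest hippocampus sample. The fitted difference was 17.2-fold (log2 4.10 ± 0.31, SE, edgeR adjusted p = 3.56e-12). A circle of 2 exons from the same gene differed in the same way, by 4.32 on the log2 scale (edgeR adjusted p = 5.82e-10). Exon 4 held 50.9% of the circular reads of Glis3 in the hippocampus and 47.6% in the cortex.

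Nfix was 2.06-fold higher in the hippocampus (log2 1.04 ± 0.10, edgeR adjusted p = 2.74e-10), and the tissues did not overlap. Glis3 and Nfix were the only 2 of the 59 circles without overlap between the tissues, against 1.28% of all circRNAs tested. The Nfix circle held 94.1% of the circular reads of its gene in the hippocampus and 94.4% in the cortex. Exon 3 of Epha6 (chr16:60424721-60425384, minus strand), an ephrin receptor, ranged from 156 to 740 (median 368) in the hippocampus and from 0 to 372 (median 0) in the cortex, where again 10 samples had a count of 0. Its difference was 6.72-fold (log2 2.75 ± 0.45, edgeR adjusted p = 1.78e-05).

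**Figure D5:**
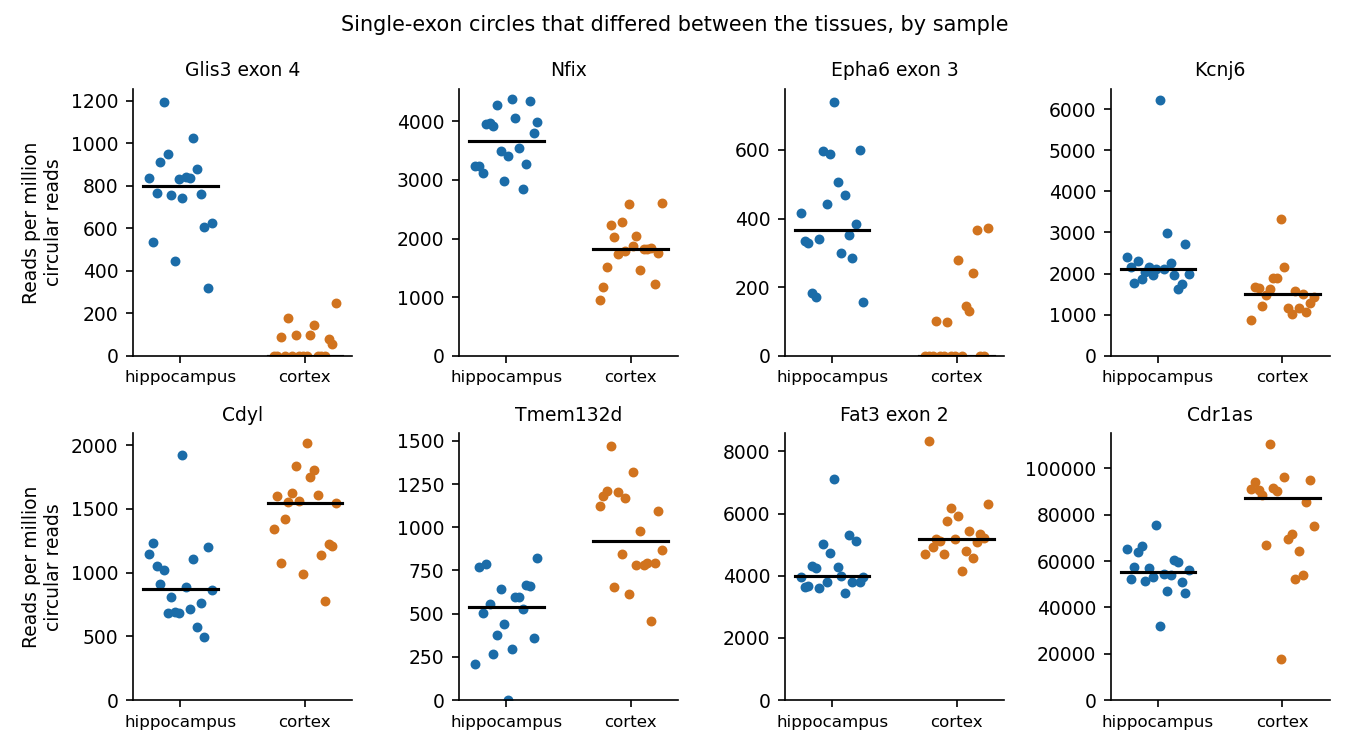
Each panel is a single-exon circle that differed between the tissues, with 18 points for the hippocampus and 18 for the cortex, in RPM, and black bars at the medians. Glis3 exon 4 and Nfix do not overlap between the tissues, whereas Kcnj6, Cdyl, Tmem132d, Fat3 exon 2 and Cdr1as overlap with shifted medians.

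The other circles that were higher in the hippocampus overlapped between the tissues, and all but Ppp3ca showed smaller shifts. Kcnj6 exon 3 (chr16:94832299-94833219, minus strand), from a gene for an inwardly rectifying potassium channel, ranged from 1615 to 6218 (median 2104) in the hippocampus and from 864 to 3330 (1503) in the cortex. It was 1.51-fold higher (log2 0.60 ± 0.11, edgeR adjusted p = 9.9e-05), and no other exon-bounded circle of the gene was detected. Pvt1 exon 2 (chr15:62107148-62107465, plus strand), from a long noncoding RNA gene, ranged from 1215 to 3138 (2052) and from 792 to 2344 (1394), a 1.53-fold difference (log2 0.61 ± 0.12, edgeR adjusted p = 0.000127). Ppp3ca exon 2 (chr3:136797726-136797926, plus strand) encodes part of the catalytic subunit of calcineurin. It had a median of 314 in the hippocampus and 138 in the cortex, with 1 and 7 samples at 0 (log2 1.62 ± 0.41, edgeR adjusted p = 0.00288). Ep400 exon 2, from a chromatin remodeller, and Mapk4 exon 2, from an atypical MAP kinase, were 1.55- and 1.56-fold higher (log2 0.63 ± 0.17 and 0.64 ± 0.17). Slc8a1 was 1.24-fold higher (log2 0.31 ± 0.10, edgeR adjusted p = 0.0225), a call lost with total reads as the scale (0.0575), and 3 multi-exon circles of the same gene were higher by 0.78 to 1.30 on the log2 scale. Tcf20 was 1.22-fold higher (edgeR adjusted p = 0.0342), a call that was lost at either of the 2 other scalings and when any of 4 libraries was left out (hippocampus ZT5 replicate 3, ZT13 replicate 2 or ZT21 replicate 2, or cortex ZT21 replicate 2, adjusted p up to 0.0546).

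In the cortex, exon 5 of Cdyl (chr13:35815909-35816575, plus strand), a chromodomain corepressor, showed the smallest p. It ranged from 494 to 1925 (median 872) in the hippocampus and from 781 to 2017 (1549) in the cortex, and was 1.59-fold higher in the cortex (log2 -0.66 ± 0.12, edgeR adjusted p = 6.15e-05). A circle of 2 exons from the same gene had a log2 difference of -0.12 (edgeR adjusted p = 0.65). Tmem132d exon 2 (chr5:128268492-128269377, minus strand), from a gene for a transmembrane protein, ranged from 0 to 821 (541) and from 459 to 1470 (922), a 1.87-fold difference (log2 -0.90 ± 0.18, edgeR adjusted p = 0.000204). Fat3 exon 2 was 1.25-fold higher in the cortex (log2 -0.32 ± 0.09, edgeR adjusted p = 0.00763). That call was lost in DESeq2 (adjusted p = 0.106) and without a filter on low counts (0.0813).

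Cdr1as was 1.39-fold higher in the cortex (log2 -0.47 ± 0.14, edgeR adjusted p = 0.00891), although its lowest value of all lay in the cortex. The call was absent in DESeq2 (adjusted p = 0.16), and without the 3 libraries that stood apart the edgeR adjusted p was 1.2e-07. Exon 4 of Thrb, the thyroid hormone receptor beta, is a wholly coding exon of 261 nt (chr14:17963061-17963321, plus strand). It had a median of 194 in the hippocampus and 316 in the cortex (log2 -0.98 ± 0.34, edgeR adjusted p = 0.0265). Its call was lost without cortex ZT5 replicate 2 or cortex ZT9 replicate 1 (adjusted p = 0.0644 and 0.0878), in DESeq2 (0.0507) and when no filter was applied (0.0677). Without hippocampus ZT9 replicate 2 the difference grew to a log2 of -1.69. Exon 4 of Gucy1a2, a subunit of soluble guanylate cyclase, had a log2 of -0.44 ± 0.17 and an edgeR adjusted p of 0.0496. That call was lost in DESeq2 (adjusted p = 0.264), without a filter (0.464), with total reads as the scale (0.0507) and when any 1 of 24 libraries was left out, among them all 3 that stood apart except hippocampus ZT13 replicate 1.

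The host genes were read against lists of gene groups. Of 57 genes of the synapse and of neuronal adhesion 19 made 28 single-exon circles. Of these 6 could be tested, of which Epha6 exon 3 and Nlgn1, a neuroligin, were higher in the hippocampus and Fat3 exon 2 in the cortex. The call of Nlgn1 (edgeR adjusted p = 0.0254) was lost when any of 7 libraries was left out (adjusted p up to 0.0916). Of 74 regulators of transcription and chromatin 19 made 21 circles, 6 were tested, and Nfix, Ep400 and Tcf20 were higher in the hippocampus. Of 47 genes for ion channels and solute carriers 8 made a circle each, and both that were tested, Slc8a1 and Kcnn2, a calcium-activated potassium channel, were higher in the hippocampus. Of 52 genes for protein kinases and phosphatases 4 made a single-exon circle and 36 made multi-exon circles, and of the 2 tested Ppp3ca was higher in the hippocampus. Of 47 genes of the ubiquitin system 1 made a single-exon circle (Fbxw7) and 40 made multi-exon circles. Multi-exon circles were far more numerous in all genes (5252 against 307 circles). Whether the host counts of a list differ from those of all genes was not tested. The lists do not hold every gene of their kind. The list of regulators lacks Cdyl and Thrb, with circles higher in the cortex, and Glis3, with a circle higher in the hippocampus. The list of channels lacks Kcnj6 and that of kinases Mapk4, both with circles higher in the hippocampus. The directions therefore hold for the listed genes only. The background of the tissue calls is the 17 and 13.5% over all circRNAs, and the 27.1 and 10.2% over the 59 single-exon circles. The median log2 differences of the tested members ranged from 0.28 to 0.81 over these lists. Each median rests on only 2 to 6 circles, and the median was 0.13 over the 59 single-exon circles and 0.04 over all circRNAs.

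Of 11 genes with well documented single-exon circles or names of that locus, 7 hosted one here, namely Cdr1as, Slc8a1, Hipk3, Nfix, Zfp609, Fat1 and Hipk2. Zfp609, which encodes a zinc finger protein, ranged from 1263 to 3702 (median 1693) in the hippocampus and from 493 to 1967 (1431) in the cortex, and did not pass the tissue test (log2 0.26 ± 0.12, edgeR adjusted p = 0.0958). Fat1 and Hipk2 had too few reads for the test, with 51 and 26 reads in the hippocampus and 92 and 24 in the cortex. Foxo3 had no detected single-exon circle. The abundant Tulp4 circle runs from the start of 1 annotated exon to the end of a different, overlapping one, and no annotated exon holds both ends, so that it was not counted.

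Time of day was compared between the 9 dark and the 9 light samples of each tissue, and over the 6 time points. In the hippocampus the single-exon share was 15.0% ± 0.64 in the dark and 16.0% ± 0.85 in the light (n = 9 each), a difference of -0.98 points (exact two-sided permutation p = 0.0148, 0.148 after Benjamini-Hochberg adjustment over 10 tests of shares). Without Cdr1as the difference was -0.06 points (exact permutation p = 0.862). In the cortex the share was 16.5% ± 1.87 in the dark and 17.7% ± 2.60 in the light, a difference of -1.21 points (exact permutation p = 0.281). Without the single library cortex ZT9 replicate 3 the cortex difference was -1.96 points (exact permutation p = 0.0323). The 2 tissues did not differ measurably in the effect of phase (0.23 points, permutation p = 0.855). Over the 6 time points the permutation p was 0.14 in the hippocampus and 0.219 in the cortex, and 0.0474 and 0.223 without Cdr1as (0.237 and 0.371 after adjustment).

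No single-exon circle passed an adjusted p of 0.05 in edgeR between dark and light or over the 6 time points in either tissue. In the hippocampus 52 circles were tested, with 2 at an unadjusted p under 0.05 in either comparison, and in the cortex 44, with 1 in either. Over all circRNAs 28 of 586 (dark against light) and 20 (time points) had such a p in the hippocampus, and 18 and 14 of 519 in the cortex. DESeq2 called no single-exon circle either, and among all circRNAs it called 1, between dark and light in the hippocampus. A dark minus light difference that differed between the tissues was called in edgeR for none of the 59 circles and for 0% of all circRNAs tested. At an unadjusted p under 0.05 there were 2 of the 59 circles and 28 of all 705 circRNAs. Among all circRNAs tested in edgeR, 0% passed between dark and light in both tissues and over time in the hippocampus, and 0.193% over time in the cortex. The smallest unadjusted p belonged to St6galnac3, a sialyltransferase gene, between dark and light in the hippocampus (0.00413, edgeR adjusted p = 0.752). Cdr1as had a log2 dark minus light difference of -0.29 ± 0.12 in the hippocampus (edgeR adjusted p = 0.865) and of -0.16 ± 0.24 in the cortex (0.99), and was called in the hippocampus between dark and light, and over time in both tissues, only when no filter on low counts was applied (adjusted p = 0.000109, 3.87e-07 and 4.28e-07).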

How the data were processed

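The deposited tables hold counts of back-spliced reads per circRNA, which the authors obtained from rRNA-depleted total RNA by mapping with BWA to GRCm38 and calling circles with CIRI2 (the CIRI2 version is not given in the sources used here). The smallest count above 0 is 2, so that single reads are not seen. 1 column that matched no sample was not used. CircRNAs were classed by their ends against GENCODE M21. Shares refer to reads on circRNAs found in 2 or more replicates of a time point, levels (RPM) to 1000000 listed circular reads. Tests were permutation tests over samples (scipy 1.17.1) and edgeR 4.0.16 quasi-likelihood fits with TMM and filterByExpr (minimum count 10), with Benjamini-Hochberg adjustment over all circRNAs tested. DESeq2 1.42.0, other scalings, no filter, other detection rules, a replicate block and leaving out samples were tried as alternatives. The fit was tested on simulated data, where 93% of 2-fold tissue changes among 705 features were recovered. The simulation gave every circle the same set spread between samples and held no outlying libraries. The 93% is therefore not the power in the real data. In a sample, 95% Wilson intervals of the single-exon share, which cover counting error only, were for example 13.9 to 15.7% in the shallowest library. The members, gene lists and tests were chosen with earlier results of these data known, and marker genes, the search for reading frames and the fits without 3 libraries after the files were seen. Named circles are the 8 with the most reads, the 3 shortest and 3 longest found in at least 18 samples, up to 8 per direction with the smallest adjusted p between the tissues, up to 3 per tissue past it for time of day (there were none), those of documented hosts and, for printed exons, coding ones under 300 bases in order of reads. Others are named where counted in full. The check of cortical marker genes is not reported here. A circle is named by its gene, with the exon where the gene has several.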

Additional observations from a re-analysis of the deposited data

Results flagged for a closer look

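Single samples were searched for in 48 groups of 9 (tissue and phase, for the shares, the ratio of reads per circle, the number of circles found and the 8 most abundant circles), where chance marks about 1 in 20. In hippocampus ZT13 replicate 1, 74 single-exon circles were found (129 to 177 in the other dark samples), the share without Cdr1as was 11.46% (8.95 to 9.93%), Fat3 exon 2 took 0.839% of the reads (0.396 to 0.615%) and Kat6b 0.664% (0.452 to 0.547%). In hippocampus ZT1 replicate 3, 257 single-exon circles were found (142 to 197 in the other light samples). In cortex ZT9 replicate 3, Cdr1as took 2.18% of the reads (7.78 to 12.5% in the other light samples), Slc8a1 1.63% (0.488 to 0.559%), Tcf20 1.02% (0.258 to 0.577%) and Hipk3 0.183% (0.298 to 0.382%). In cortex ZT1 replicate 2, Fat3 exon 2 took 1.00% (0.532 to 0.704%). The part of depth in these values was not tested: hippocampus ZT13 replicate 1 and cortex ZT9 replicate 3 are the shallowest libraries of their tissues and hippocampus ZT1 replicate 3 is the deepest.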

How the results depend on the processing

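The tissue difference in the single-exon share (-1.64 points, hippocampus minus cortex) reversed to 0.78 without Cdr1as and to 0.91 with exons of protein-coding transcripts only, which leave out Cdr1as, and ranged from -1.95 to -1.43 when single libraries were left out. The difference without Cdr1as ranged from 0.68 to 0.83. The dark minus light share in the hippocampus was -0.0581 without Cdr1as and 0.0741 with protein-coding transcripts only, and -1.13 to -0.79 over single libraries left out. In the cortex it was -1.96 without cortex ZT9 replicate 3, which is also the value without the 3 libraries that stood apart, and -1.96 to -0.84 over single libraries left out. The median length of single-exon circles was 695 nt with 3 replicates and 407 nt with no detection rule, that of multi-exon circles 597 nt with no rule and 579 nt with the longest transcript. The reads-per-circle ratios kept direction and call in every alternative. Calls higher in the hippocampus numbered 14 to 21 and in the cortex 4 to 8 over the alternatives, and 14 to 19 and 5 to 9 over single libraries left out. DESeq2 shared 15 of 16 and 2 of 6 of them, no filter 12 and 3. Without a filter 1 circle, Cdr1as, was called between dark and light in the hippocampus, 1 over time in each tissue and 1 for a phase effect that differed between the tissues. The log2 tissue differences of Med13l and Hipk3, which passed no test, changed sign to -0.0158 and -0.0179 with DESeq2's size factors and to -0.00333 and -0.000605 with total reads, and Med13l to -0.00600 without the 3 libraries. The labels link the samples by a replicate number only and do not say whether they share an animal. Correlations of same-numbered samples' deviations ranged from -0.22 to 0.15, which cannot decide it. With a replicate block the share difference was -1.64 (exact permutation p = 0.0251), 15 circles were called higher in the hippocampus, where St6galnac3 was lost, and 4 in the cortex, where Cdr1as (adjusted p = 0.0609) and Gucy1a2 (0.0563) were lost. The cause of these changes was not tested. Depth limits the comparison: 248 of 307 circles had too few reads for the tissue test.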

Other observations

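In the 2 shallowest libraries, hippocampus ZT13 replicate 1 and cortex ZT9 replicate 3, several single-exon circles lay at the extremes of their tissue, in either direction. Setbp1 exon 2, from a gene for a SET-binding protein, reached 8291 and 4687 RPM, the highest value of each tissue, against medians of 2422 and 1937. Kcnj6 (6218 and 3330 RPM), Tcf20 (6959 and 8264 RPM) and Gucy1a2 (1036 and 1234 RPM) were also at the highest value of each tissue. Cdr1as (31981 and 17639 RPM), Hipk3 (1481 and 1480 RPM) and Pcmtd1 (0 and 370 RPM) were at the lowest value of each tissue. Slc8a1 was at its lowest value in the first of these libraries (5034 RPM) and at its highest in the other (13198 RPM), and Zfp609 was the reverse (3702 and 493 RPM). The circles were chosen after their values were seen, and no test was made.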
